A study of Mus musculus with 7 samples.

Results

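The 4 mouse TCF/LEF genes, Tcf7, Lef1, Tcf7l1 and Tcf7l2, encode the DNA-binding partners of beta-catenin. Their transcript levels were read in 7 libraries from cultured fetal kidneys. Members were chosen by symbol, and all 4 were found among the 23235 gene symbols of the deposited tables and among the 13466 genes tested. All libraries were of strain C57BL/6 with activated beta-catenin, the controls included. In 3 libraries E2-2 was deleted and in 4 it was wildtype. Tamoxifen was given to the mothers at 10.5 days post coitum, 2 mg per 40 g of body weight. Kidneys were taken at 10.5 days post coitum and kept on a membrane support for 3 to 4 days. The labels name no Cre driver, no deleted exon and no form of the beta-catenin allele. They do not say which libraries came from 3 and which from 4 days of culture. Nor is it stated that the libraries are from different animals, so a p-value here reflects only how these libraries spread, which may be technical.

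In canonical Wnt signalling, stabilized beta-catenin enters the nucleus, and since it cannot bind DNA by itself it is brought to target genes by a TCF/LEF protein through an HMG box. Without beta-catenin the same proteins hold Groucho/TLE corepressors and keep the targets silent. Tcf7 (TCF-1) and Lef1 (LEF-1) are best known as activators that are themselves raised by Wnt signalling, Tcf7l1 (TCF-3) mostly as a repressor, and Tcf7l2 (TCF-4) as an activator or a repressor depending on the tissue. In the fetal kidney, beta-catenin acts in the nephron progenitors, the ureteric bud and the stroma. The older protein names invite a mix-up. E2-2 is the product of the gene Tcf4, a basic helix-loop-helix E protein that is no member of the TCF/LEF family, and the gene Tcf3 likewise encodes an E protein, E2A.

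The RefSeq table of start sites (build GRCm38.p6) held 9 starts for the 4 genes, 2 for Tcf7, 4 for Lef1, 1 for Tcf7l1 and 2 for Tcf7l2. The sequences below show where those starts lie, because inner starts of these genes are known to give protein forms that lack the N-terminal stretch that binds beta-catenin, and a level for the whole gene cannot tell such forms apart. The outer start of Tcf7, on the minus strand of chromosome 11 at position 52283014, lay inside a longer reading frame. An ATG stood 165 bases before it, and the frame opened there ran for 419 codons to the same stop codon as the frame of 303 codons annotated in GENCODE M21. Those 165 bases (chr11:52283015-52283179, minus strand) can therefore be read as coding sequence, with the ATG and 1 match to CAGCTG in capitals.
Tcf7: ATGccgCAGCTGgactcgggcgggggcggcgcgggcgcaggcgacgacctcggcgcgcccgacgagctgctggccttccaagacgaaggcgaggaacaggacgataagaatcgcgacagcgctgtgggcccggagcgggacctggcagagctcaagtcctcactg
Upstream of the outer start of Lef1 (start 1), on the plus strand of chromosome 3, the 250 bases (chr3:131110047-131110296) held none of the motifs searched. The motifs were the TCF/LEF core, spelled CTTTGAA or its variant CTTTGAT, and with a T in the next to last place the form CTTTGTA or the form CTTTGTT, together with the E-box sequence CAGCTG and the related E-box CACCTG, on both strands and with no overlap between families.
Lef1 start 1: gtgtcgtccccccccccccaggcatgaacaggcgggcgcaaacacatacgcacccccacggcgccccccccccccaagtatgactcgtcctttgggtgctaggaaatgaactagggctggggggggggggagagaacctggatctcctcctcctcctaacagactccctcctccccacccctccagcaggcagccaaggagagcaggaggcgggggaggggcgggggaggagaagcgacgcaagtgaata
The 250 bases before start 3 (chr3:131112541-131112790) lay in introns of 3 GENCODE transcripts and held 1 match to CAGCTG, in capitals.
Lef1 start 3: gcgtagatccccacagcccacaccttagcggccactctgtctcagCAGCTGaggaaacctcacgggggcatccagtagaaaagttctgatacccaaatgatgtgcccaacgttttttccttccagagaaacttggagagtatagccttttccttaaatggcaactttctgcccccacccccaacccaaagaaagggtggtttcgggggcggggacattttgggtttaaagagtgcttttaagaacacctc
Those before start 4 (chr3:131156044-131156293), also intronic, held 1 match to CTTTGTA on the opposite strand, in capitals.
Lef1 start 4: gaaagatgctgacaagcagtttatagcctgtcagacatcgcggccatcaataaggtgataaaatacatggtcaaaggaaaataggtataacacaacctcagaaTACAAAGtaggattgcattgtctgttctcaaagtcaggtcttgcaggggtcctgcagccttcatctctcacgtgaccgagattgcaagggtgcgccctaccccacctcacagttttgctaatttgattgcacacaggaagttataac
For Tcf7l2, on the plus strand of chromosome 19, the inner start is shown because the 250 bases before it (chr19:55895071-55895320), inside introns of the gene, held 1 match to CTTTGTT, in capitals.
Tcf7l2 inner start: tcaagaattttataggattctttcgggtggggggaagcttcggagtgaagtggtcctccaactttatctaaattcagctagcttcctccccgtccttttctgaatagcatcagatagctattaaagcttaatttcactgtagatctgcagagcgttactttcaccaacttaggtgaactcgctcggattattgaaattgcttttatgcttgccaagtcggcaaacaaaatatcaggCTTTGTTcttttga

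Of all 32851 windows of 250 bases in the table, 14.8% held a TCF/LEF core, 13% held CAGCTG and 17.2% held CACCTG. The windows of Tcf7l1, of the outer Tcf7l2 start, of the inner Tcf7 start and of the second Lef1 start held none of the 3. The single window of Axin2, a feedback target of the pathway, held none either. A match here is a string of letters and no match says only that these letters are not in this window.

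Levels below are FPKM, fragments scaled to transcript length and to library size, so they can be compared between genes per length. Differences are E2-2 deleted minus E2-2 wildtype on the log2(FPKM + 1) scale, tested with limma over all 13466 genes with a mean of at least 1 FPKM. With limma 0 of these genes (0%) passed an adjusted p of 0.05, and 605 (4.49%) had an unadjusted p under 0.05. That count was 250 without deleted replicate 2, 336 without wildtype replicate 4 and 1473 without deleted replicate 1. The groups did not overlap in 382 genes with the deleted libraries higher (2.84%) and in 276 with them lower (2.05%). The depth inferred from the deposited intervals was 14600000 to 26600000 fragments per library. Tcf4, the gene of E2-2, was at 33.5, 41.7 and 41.99 FPKM in the deleted and at 48.8, 58.1, 28.7 and 39.2 in the wildtype libraries. Tcf3 was at 60.4 ± 17.4 (SD, n = 3) and 74.7 ± 7.36 FPKM (SD, n = 4). A level of Tcf4 over the whole gene does not check a deletion of unnamed exons. Deposited names of 4 libraries begin with BI (deleted replicates 1 and 2, wildtype replicates 1 and 2) and those of 3 with BM (deleted replicate 3, wildtype replicates 3 and 4). For the 4 members, differences within each prefix are given beside the pooled ones. For Tcf4 the pooled difference was -0.12 (SE 0.23), with -0.50 within BI and 0.31 within BM.

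Tcf7 and Lef1 were each higher in all 3 deleted libraries than in any wildtype library, with a deleted mean of about 2 times the wildtype mean that deleted replicate 2 carried in large part, while the groups overlapped in Tcf7l1 and Tcf7l2. Together they made up a larger share of the summed TCF/LEF level in each deleted library than in the wildtype libraries, most of all in deleted replicate 2. No member passed the adjusted threshold.

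Tcf7 (chromosome 11, 52066106 to 52095752 as the deposited tables give it, with no build named) was at 16.9, 37.5 and 21.6 FPKM in deleted replicates 1 to 3. It was at 13.3, 12.3, 9.53 and 15.02 FPKM in wildtype replicates 1 to 4. The lowest deleted library was 1.12 times the highest wildtype one, and deleted replicate 2 was 3.00 times the wildtype mean. The means were 25.3 ± 10.8 (SD, n = 3) and 12.5 ± 2.302 (SD, n = 4), a ratio of 2.02. The difference was 0.90 on the log2 scale (SE 0.26, 95% confidence interval 0.29 to 1.51), with a limma unadjusted p of 0.00956 and an adjusted p of 0.795. That p was the 94th smallest of the 13466. The exact 2-sided permutation p was 0.0286, the smallest that 35 splits can give. The difference was 0.93 within BI and 0.80 within BM. Without deleted replicate 2 it was 0.59, and the mean of the other deleted libraries was 19.2 FPKM, 1.53 times the wildtype mean.

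Lef1 (chromosome 3, 130813389 to 130926249) was at 8.49, 19.7 and 8.64 FPKM in the deleted libraries. It was at 4.80, 7.47, 4.97 and 6.75 FPKM in the wildtype libraries. Deleted replicate 2 stood apart again, at 3.28 times the wildtype mean, whereas deleted replicates 1 and 3 lay close to wildtype replicate 2. The deposited interval of deleted replicate 1, 7.66 to 9.33 FPKM, overlapped that of wildtype replicate 2, 6.52 to 8.41. The means were 12.3 ± 6.40 (SD, n = 3) and 6.00 ± 1.32 (SD, n = 4), a ratio of 2.04. By limma the difference was 0.84 with an SE of 0.29 and a 95% interval of 0.16 to 1.52 (unadjusted p = 0.0220, adjusted p = 0.795). The exact permutation p was 0.0286, the smallest possible. The difference was 1.00 within BI and 0.50 within BM. Without deleted replicate 2 it was 0.47, with a mean of 8.57 FPKM in the other deleted libraries. The unadjusted p missed 0.05 without wildtype replicate 1 (0.0543) or wildtype replicate 3 (0.0540).

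Tcf7l1 (chromosome 6, 72576374 to 72738950), the member best known as a repressor, was at 31.6, 15.6 and 22.3 FPKM in the deleted libraries. It was at 27.1, 25.3, 29.96 and 29.8 FPKM in the wildtype libraries. The deleted libraries spread around the narrow wildtype range, with replicate 1 above all 4 wildtype libraries and replicates 2 and 3 below all of them. The means were 23.2 ± 8.02 (SD, n = 3) and 28.1 ± 2.27 (SD, n = 4). By limma the difference was -0.32 with an SE of 0.21 and a 95% interval of -0.80 to 0.17. It stayed within the spread between libraries (limma unadjusted p = 0.172, adjusted p = 0.795, unadjusted exact permutation p = 0.286). It was -0.22 within BI and -0.41 within BM. It was -0.07 without deleted replicate 2 and -0.56 without deleted replicate 1, where the unadjusted limma p was 0.0112 and the adjusted p 0.387.

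Tcf7l2 (chromosome 19, 55816300 to 56008145), with 2 start sites in the deposited tables against 1 for each other member, varied least among the deleted libraries. It was at 7.79, 6.40 and 6.91 FPKM in the deleted libraries and at 7.86, 8.24, 6.26 and 8.04 in the wildtype libraries. Wildtype replicate 3 was the lowest of all 7. The means were 7.04 ± 0.706 (SD, n = 3) and 7.60 ± 0.906 (SD, n = 4). By limma the difference was -0.10 with an SE of 0.13 and a 95% interval of -0.39 to 0.20 (limma unadjusted p = 0.481, adjusted p = 0.837, unadjusted exact permutation p = 0.4). The interval does not reach the 0.90 found for Tcf7. The difference was -0.17 within BI and -0.03 within BM, and ranged from -0.17 (without wildtype replicate 3) to -0.04 (without deleted replicate 2) when 1 library was left out.

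**Figure D1:**
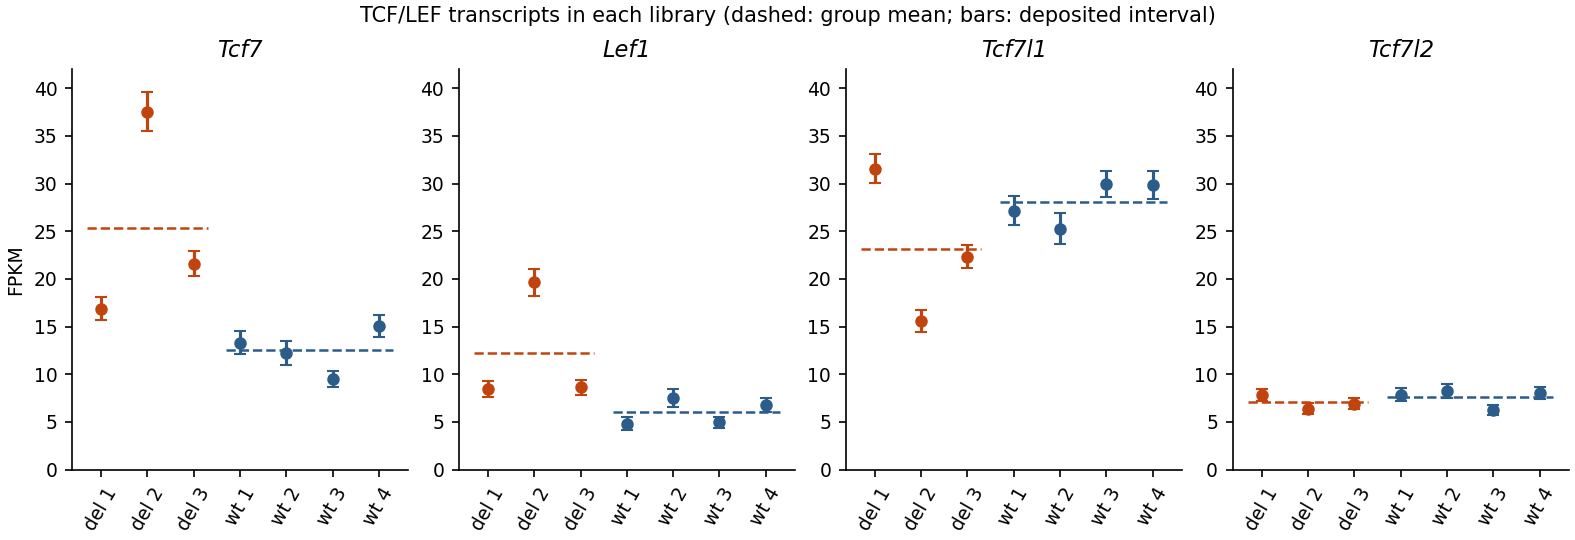
FPKM of the 4 genes (vertical axis) in each library (del, E2-2 deleted replicates 1 to 3, orange; wt, E2-2 wildtype replicates 1 to 4, blue), with the deposited interval as a bar and the group mean as a dashed line. Tcf7 and Lef1 are highest in deleted replicate 2, at 37.5 and 19.7 FPKM, where Tcf7l1 is lowest, at 15.6 FPKM.

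These spreads were wider than counting alone gives. The deposited intervals correspond to 367 to 1362 inferred fragments per library for Tcf7, 201 to 794 for Lef1, 711 to 2000 for Tcf7l1 and 431 to 699 for Tcf7l2. The counting error of a single value was thus at most 5.22% for Tcf7, 7.05% for Lef1, 3.75% for Tcf7l1 and 4.82% for Tcf7l2. The coefficient of variation between wildtype libraries was 18.4% for Tcf7, 22.0% for Lef1, 8.09% for Tcf7l1 and 11.9% for Tcf7l2. Between deleted libraries it was 42.7%, 52.2%, 34.6% and 10.03% in the same order.

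In FPKM, Tcf7l1 was the most abundant member in 6 of 7 libraries and Tcf7 the next. In deleted replicate 2 the order was Tcf7, Lef1, Tcf7l1 and Tcf7l2. In deleted replicate 3 Tcf7l1 and Tcf7 did not differ beyond their deposited intervals, 21.1 to 23.5 and 20.3 to 22.9 FPKM. Tcf7 lay above Tcf7l2 in all 7 libraries and above Lef1 in all 7. Tcf7l2 lay above Lef1 in all 4 wildtype libraries and below it in all 3 deleted ones. The means of that last pair, 7.60 and 6.00 FPKM in the wildtype libraries, differed by about their SDs of 0.906 and 1.32, and the deposited intervals of the pair overlapped in wildtype replicates 2 and 4 and in deleted replicate 1.

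The 4 genes together came to 64.8, 79.2 and 59.5 FPKM in the deleted and 53.1, 53.2, 50.7 and 59.7 FPKM in the wildtype libraries. The sums nearly separated, with deleted replicate 3 just below wildtype replicate 4. Tcf7 and Lef1 made up 39.2%, 72.2% and 50.8% of that sum in the deleted libraries, against wildtype values of 34.1%, 37.1%, 28.6% and 36.5%. All deleted shares lay above all wildtype shares, although deleted replicate 1 exceeded wildtype replicate 2 by little. The mean share was 54.1 ± 16.7% (SD, n = 3) against 34.1 ± 3.86% (SD, n = 4), and 45.0% in the deleted libraries without replicate 2. Since Tcf7 and Lef1 were the members that separated, this order of shares is no further evidence.

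Set against the repressor-type member, Tcf7 plus Lef1 stood at 0.804, 3.66 and 1.35 times Tcf7l1 in the deleted libraries and at 0.668, 0.781, 0.484 and 0.729 times in the wildtype libraries. Deleted replicate 1 thus kept more Tcf7l1 than Tcf7 and Lef1 together, as did every wildtype library, and deleted replicates 2 and 3 did not. The share of Tcf7l1 alone was 48.8%, 19.7% and 37.6% in the deleted libraries against 47.5% to 59.1% in the wildtype libraries, so these groups overlapped. The share of Tcf7l2 was 8.08% to 12.0% in the deleted and 12.3% to 15.5% in the wildtype libraries. These shares did not overlap although its FPKM did. A share falls when the levels of other members rise, so this is no further evidence either. Tcf7 and Lef1 kept nearly the same proportion to each other, 2.13 ± 0.32 (SD, n = 3) and 2.14 ± 0.49 (SD, n = 4) FPKM of Tcf7 per FPKM of Lef1.

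**Figure D2:**
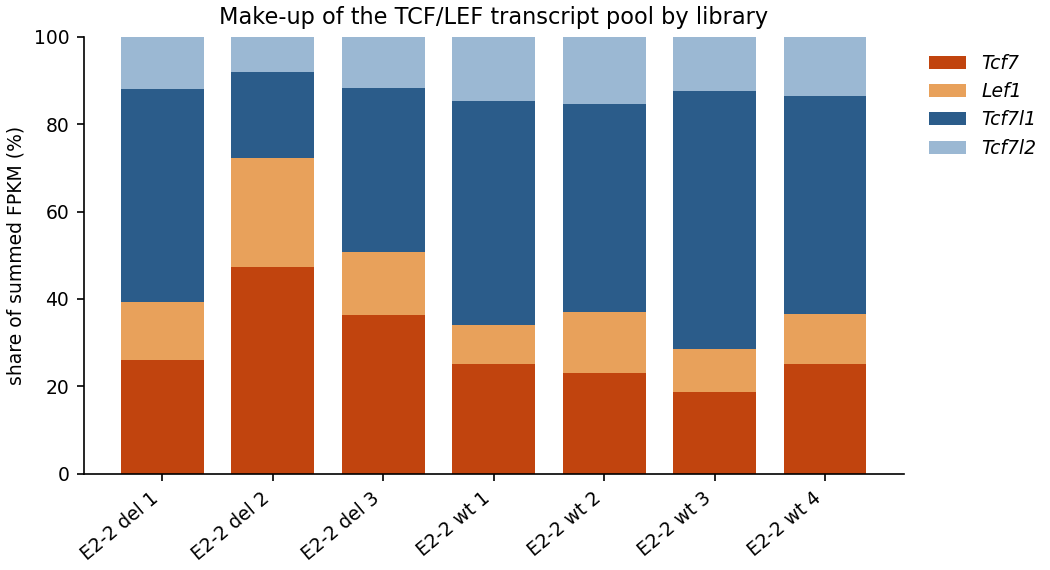
Share of each gene in the summed FPKM of the 4 (vertical axis, percent) for E2-2 deleted (del) and E2-2 wildtype (wt) libraries. Tcf7 and Lef1 together take 39.2% to 72.2% of the bar in deleted and 28.6% to 37.1% in wildtype libraries.

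Over the 7 libraries of both groups, Tcf7 and Lef1 correlated with each other and with Axin2, a feedback inhibitor whose transcripts are a common readout of beta-catenin activity. Correlations were taken on log2(FPKM + 1) for 10 relations, the 6 pairs of members and each member with Axin2, with exact permutation p-values adjusted over the 10. The group means of Tcf7, Lef1 and Axin2 differ, so the 7 points are not free of that contrast. The BI and BM prefixes hold 4 and 3 libraries, too few for a correlation within either. Between Tcf7 and Lef1, Pearson's r was 0.93 (exact permutation p = 0.00635, adjusted 0.0212) and Spearman's rho 0.82 (exact permutation p = 0.0341, adjusted 0.114). Without deleted replicate 2 and wildtype replicate 3, the libraries farthest from the median of Tcf7, r was 0.62, so this relation rested in part on them. Between Lef1 and Axin2 r was 0.97 (exact permutation p = 0.00119, adjusted 0.0119), rho was 0.89 (exact permutation p = 0.0123, adjusted 0.114), and r was 0.90 without the libraries farthest from the median of Lef1 (deleted replicate 2, wildtype replicate 1). Between Tcf7 and Axin2 r was 0.94 (exact permutation p = 0.00397, adjusted 0.0198), rho was 0.86 (exact permutation p = 0.0238, adjusted 0.114) and r was 0.75 without deleted replicate 2 and wildtype replicate 3. Over the 4 wildtype libraries alone, r was 0.42 for Tcf7 with Lef1, 0.75 for Lef1 with Axin2 and 0.18 for Tcf7 with Axin2. These libraries are too few for a test, so none of these relations was shown within a group.

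Tcf7l1 ran the other way, with values that moved with the libraries kept. With Axin2 its r was -0.89 (exact permutation p = 0.0216, adjusted 0.0541) and its rho -0.64 (exact permutation p = 0.139, adjusted 0.347). Without the 2 libraries farthest from its median, deleted replicates 2 and 3, r was 0.08. It was -0.52 without deleted replicate 2 alone and -0.89 over the 4 wildtype libraries, too few for a test. With Tcf7 its r was -0.84 (exact permutation p = 0.0272, adjusted 0.0544) and rho -0.50 (exact permutation p = 0.267, adjusted 0.444). That r was -0.31 without deleted replicate 2 and wildtype replicate 3, the libraries farthest from the median of Tcf7. With Lef1 its r was -0.84 (exact permutation p = 0.0403, adjusted 0.0671) and rho -0.54 (exact permutation p = 0.236, adjusted 0.444). That r was -0.42 without deleted replicate 2 and wildtype replicate 1, the libraries farthest from the median of Lef1. The 4 relations of Tcf7l2 had r of -0.44 to 0.48 and exact permutation p-values of 0.287 to 0.498 before adjustment.

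**Figure D3:**
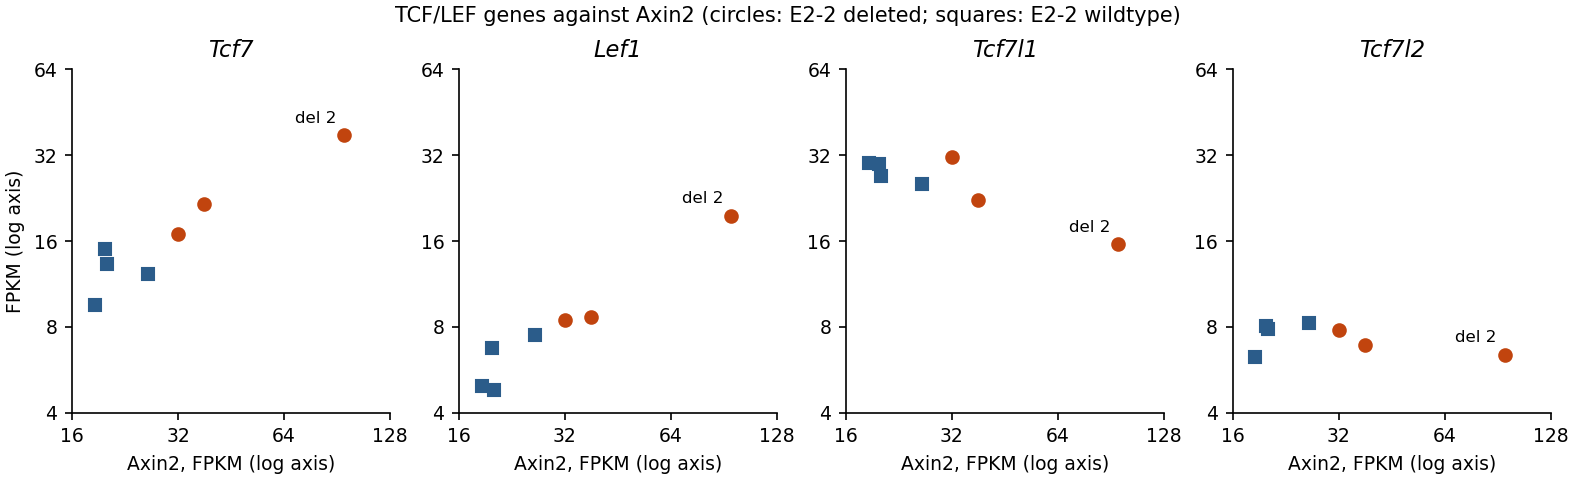
FPKM of each TCF/LEF gene (vertical, log axis) against FPKM of Axin2 (horizontal, log axis), with E2-2 deleted libraries as orange circles, wildtype libraries as blue squares and deleted replicate 2 (del 2) marked. Tcf7 and Lef1 are highest, 37.5 and 19.7 FPKM, at an Axin2 level of 94.9 FPKM, and Tcf7l1 is lowest there.

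Among genes with a mean of at least 5 FPKM, those most like each member over the 7 libraries were named by Pearson's r on log2(FPKM + 1), as a description. Predicted genes, clones and unnamed open reading frames were passed over before the ranking. For Tcf7 they were Cap2, which binds adenylyl cyclase and actin, the adaptor gene Grb14, the chondroitin sulfotransferase gene Chst11, Lrrn1, a leucine-rich repeat membrane protein, and the mitochondrial flavoprotein gene Etfdh, with r of 0.979 (Etfdh) to 0.991 (Cap2). Every one of these 5 was higher in each deleted than in each wildtype library, as Tcf7 itself was, against 2.84% of all genes tested. They were picked for likeness to Tcf7 over the same libraries, so this is no further evidence. For Lef1 they were the membrane protein gene Tmem2, Whrn, a scaffold of hair cells, Chn2, a GTPase-activating protein, the histone methyltransferase gene Mll3 and the flippase gene Atp11a, with r of 0.986 (Atp11a) to 0.995 (Tmem2). The groups overlapped in Atp11a and not in the others, which likewise were picked for likeness to a gene that separates the groups. Tcf7 stood at place 94 among the 9750 candidates ranked by likeness to Lef1, and Lef1 at place 80 for Tcf7. For Tcf7l1 they were Tcof1, which acts in ribosome biogenesis, the receptor gene Cntfr, the splicing factor gene Eftud2, Bahcc1 and the actin regulator gene Wasf1. For Tcf7l2 they were the acetylcholine receptor subunit gene Chrnb1, the aldehyde dehydrogenase gene Aldh3a2, the kinase inhibitor gene Camk2n1, the focal adhesion gene Pxn and Lyplal1. Their r was 0.993 to 0.996 for Tcf7l1 and 0.971 to 0.990 for Tcf7l2. The 5 genes most like Tcf7l1 and the 5 most like Tcf7l2 all had groups that overlapped.

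The known Wnt targets were read next from a list of 25 genes that leaves out Tcf7 and Lef1. Of these, 6 (Dkk4, Ascl2, Sp8, T, Cdx1 and Cdx2) were under 1 FPKM in every library and 19 were tested. Of the 19, 15 had a positive difference and 4 a negative one, against 39.3% and 60.7% of all genes tested, and 9 had an unadjusted p under 0.05 with a positive difference (3.29% of all genes) and 0 with a negative one (1.2% of all genes). In 8 of the 19 the deleted libraries lay above all wildtype libraries, against 2.84% of all genes. The median difference of the 19 was 0.59, against -0.05 over all genes tested. None passed the adjusted threshold, and without wildtype replicate 4 the 9 became 5, where 2.5% of all genes had such a p. Much of this pattern had been seen in these data before the list was put together.

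The 4 targets of smallest p encode inhibitors of the pathway. Wif1, which binds Wnt ligands outside the cell, was at 127, 611 and 258 FPKM in the deleted libraries and at 103, 78.8, 37.9 and 27.4 in the wildtype libraries. Axin2 was at 32.05, 94.9 and 37.9 against 20.2, 26.4, 18.6 and 19.9 FPKM. Notum, an enzyme that inactivates Wnt ligands, was at 54.7, 205 and 86.3 against 46.5, 47.1, 28.3 and 35.5 FPKM, and Apcdd1, a membrane inhibitor, at 226, 804 and 326 against 161, 222, 145 and 120 FPKM. Deleted replicate 2 was the highest library in each of these 4 genes, as it was for Tcf7 and Lef1, and deleted replicate 1 was the lowest of the 3 deleted ones. Not all targets followed: Myc, the cell cycle gene Ccnd1 and Dkk1 differed by -0.11 (SE 0.24), 0.13 (SE 0.11) and -0.09 (SE 0.24).

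The nuclear partners that TCF/LEF proteins work with separated between the groups in 1 gene upward (Tle4) and 1 downward (Ctnnbip1) of 39, against 2.84% and 2.05% of all genes. The 39 cofactors, all tested, comprised 17 coactivators and 22 corepressors or inhibitors. Positive differences were found in 9 of the 17 coactivators and 5 of the 22 corepressors and inhibitors, with medians of 0.01 and -0.12 against -0.05 over all genes, of which 39.3% were positive. At an unadjusted p under 0.05 there was 1 gene of the 39 in all, against 4.49% of all genes tested, and 0 passed the adjusted threshold. The 1 became 6 without deleted replicate 1, where 10.9% of all genes had such a p. It became 3 without wildtype replicate 3 (3.27% of all genes), and 2 without deleted replicate 3 (4.13%) or wildtype replicate 2 (5.53%).

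Among coactivators, Bcl9, the adaptor that joins beta-catenin to Pygopus, was at 26.5, 28.8 and 23.0 FPKM in the deleted and 21.6, 22.2, 19.7 and 25.3 in the wildtype libraries. The difference was 0.22 (SE 0.12). Its relative Bcl9l and the Pygopus genes Pygo1 and Pygo2, readers of histone methylation, differed by 0.02 (SE 0.17), -0.04 (SE 0.18) and -0.12 (SE 0.10). Tnik, a kinase that phosphorylates TCF proteins, differed by 0.58 (SE 0.25), and it was at 3.94, 8.63 and 5.58 against 3.90, 4.58, 3.41 and 2.53 FPKM. The groups overlapped in all 17 coactivators. Ctnnb1, the gene of beta-catenin, was at 512, 636 and 579 FPKM against 511, 507, 415 and 408, with the lowest deleted value 1.00 times the highest wildtype one.

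Among corepressors, Tle4, a Groucho protein that TCF/LEF factors bind, was the 1 gene with an unadjusted p under 0.05. It was at 12.7, 15.3 and 14.2 FPKM in the deleted and 11.02, 11.4, 10.6 and 11.2 in the wildtype libraries, and all deleted libraries lay above. Its difference was 0.32 (SE 0.10; limma unadjusted p = 0.0123, adjusted p = 0.795; exact permutation p = 0.0286). The other Groucho genes Tle1, Tle2 and Tle3 differed by -0.12 (SE 0.09), -0.30 (SE 0.22) and 0.09 (SE 0.09), and the short family member Aes by -0.12 (SE 0.16). Ctnnbip1, an inhibitor that keeps beta-catenin from TCF proteins, was lower in every deleted library, at 21.1, 16.7 and 21.2 against 23.7, 21.4, 23.2 and 23.8 FPKM. The difference was -0.22 (SE 0.11), and deleted replicate 3 lay just under wildtype replicate 2. Dact1, an intracellular regulator of the pathway, and Hic1, a transcriptional repressor that binds TCF proteins, differed by 0.43 (SE 0.19) and -0.57 (SE 0.27).

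**Figure D4:**
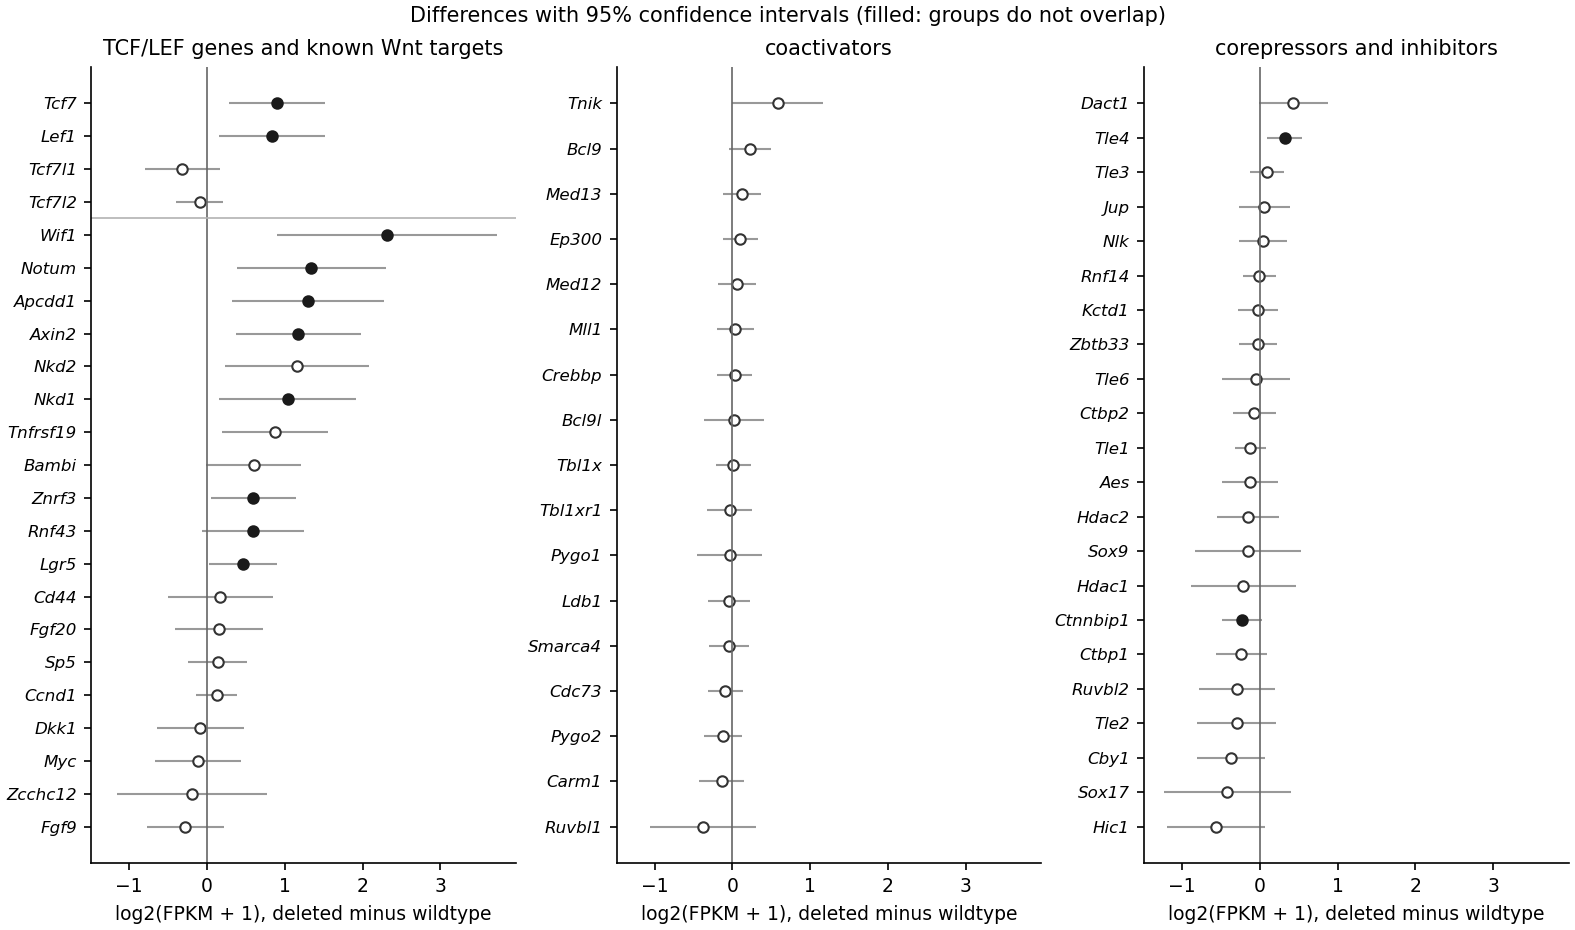
Difference of log2(FPKM + 1), E2-2 deleted minus E2-2 wildtype (horizontal axis), with the 95% confidence interval, for the TCF/LEF genes above the grey line and tested Wnt targets below it (left), coactivators (middle, Mll1 being the older symbol of Kmt2a) and corepressors and inhibitors (right). Filled points are genes whose groups do not overlap; they include Tcf7, Lef1, 8 Wnt targets, Tle4 and, below zero, Ctnnbip1.

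Tcf7 and Lef1 are also used by T cells, osteoblast precursors, tooth and pigment cells, so markers of those types were read in the same libraries. In bulk tissue, more cells of a type and more RNA per cell cannot be told apart. T cell markers were low. Of 11, the defining genes Cd3d, Cd3g and Cd2 were listed at 0 in every library and 8 in all were under 1 FPKM everywhere, and the summed level was 5.10 to 9.85 FPKM in the deleted and 6.48 to 9.42 in the wildtype libraries. The T cell sum was lowest in deleted replicate 2. In every library it came mostly from Lck, Il7r and Ptprc, the listed genes that were not under 1 FPKM everywhere, and not from the defining genes. The part of T cells in the levels of Tcf7 and Lef1 was not tested.

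Kidney markers were present in every library, and nephron progenitor markers were lowest where Tcf7 and Lef1 were highest. The 8 progenitor genes, Six2 and Wt1 among them, summed to 342, 76.4 and 229 FPKM in the deleted and 282, 184, 324 and 395 in the wildtype libraries. Of these 8, 7 had a negative difference, as did 60.7% of all genes. Deleted replicate 2 was lowest both in this sum and in Tcf7l1. Ureteric bud markers, 8 genes, summed to 75.1 to 180 FPKM against 80.8 to 205, and renal stroma markers, 6 genes, to 215 to 258 against 255 to 311. Early nephron markers, 6 genes, summed to 95.04 to 152 against 85.0 to 102 FPKM, and 4 of the 6 had a negative difference, as did 60.7% of all genes. In deleted replicate 2 Wnt4 alone gave 99.98 FPKM of that sum, while Pax8, Lhx1 and Fgf8, at 6.68, 0.658 and 0.271 FPKM, were each lowest of the 7 libraries there. At an unadjusted p under 0.05, Wnt4 and Bmp2 were higher (3.29% of all genes) and Fgf8 was lower (1.2% of all genes). Endothelial markers, 6 genes, summed to 213 to 298 against 172 to 373 FPKM. Among them the groups did not overlap in Tek, higher by 0.86 (SE 0.32), and in Gja4, at -0.86 (SE 0.24). Over all genes 2.84% lay apart upward and 2.05% downward.

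Tooth, pigment cell and skeletal muscle markers summed higher in every deleted than in any wildtype library, and those of bone overlapped between the groups. The 7 osteoblast genes summed to 33.0 to 85.5 FPKM in the deleted and 9.19 to 44.5 in the wildtype libraries. All 6 tested ones had a positive difference (39.3% of all genes), 4 of them at an unadjusted p under 0.05 (3.29% of all genes). The 8 enamel and tooth genes summed to 26.0 to 42.3 against 0.769 to 15.2 FPKM, with Amtn and Odam listed at 0 throughout. All 3 tested genes were higher at an unadjusted p under 0.05 (3.29% of all genes). The 9 melanocyte genes summed to 46.3 to 129 against 10.3 to 35.6 FPKM. All 8 tested had a positive difference (39.3% of all genes), and 7 had an unadjusted p under 0.05 (3.29% of all genes). Skeletal muscle markers, 7 genes, summed to 25.7, 117 and 40.6 FPKM against 13.3 to 19.4, with Mybpc1 alone at 102 FPKM in deleted replicate 2 and the defining gene Myod1 under 1 FPKM in every library. The muscle sum was highest in deleted replicate 2 and lowest in replicate 1 of the deleted libraries. That order was the order of Mybpc1, at 13.7, 102 and 25.1 FPKM in replicates 1 to 3. Acta1 was also highest in replicate 2, at 4.22 FPKM, but Tnni1 was highest in replicate 3, at 12.0 FPKM. Means of Myod1 and Myog were 0.032 and 0.199 FPKM in the deleted and 0.090 and 0.425 in the wildtype libraries. The osteoblast sum was nearly the same in deleted replicates 2 and 3, at 85.5 and 85.3 FPKM. Tooth and pigment sums were highest in deleted replicate 3. Glial and neural crest markers, 5 genes, summed to 10.2 to 19.1 against 5.86 to 16.1 FPKM. The part of these cell types in the levels of Tcf7 and Lef1 was not tested.

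**Figure D5:**
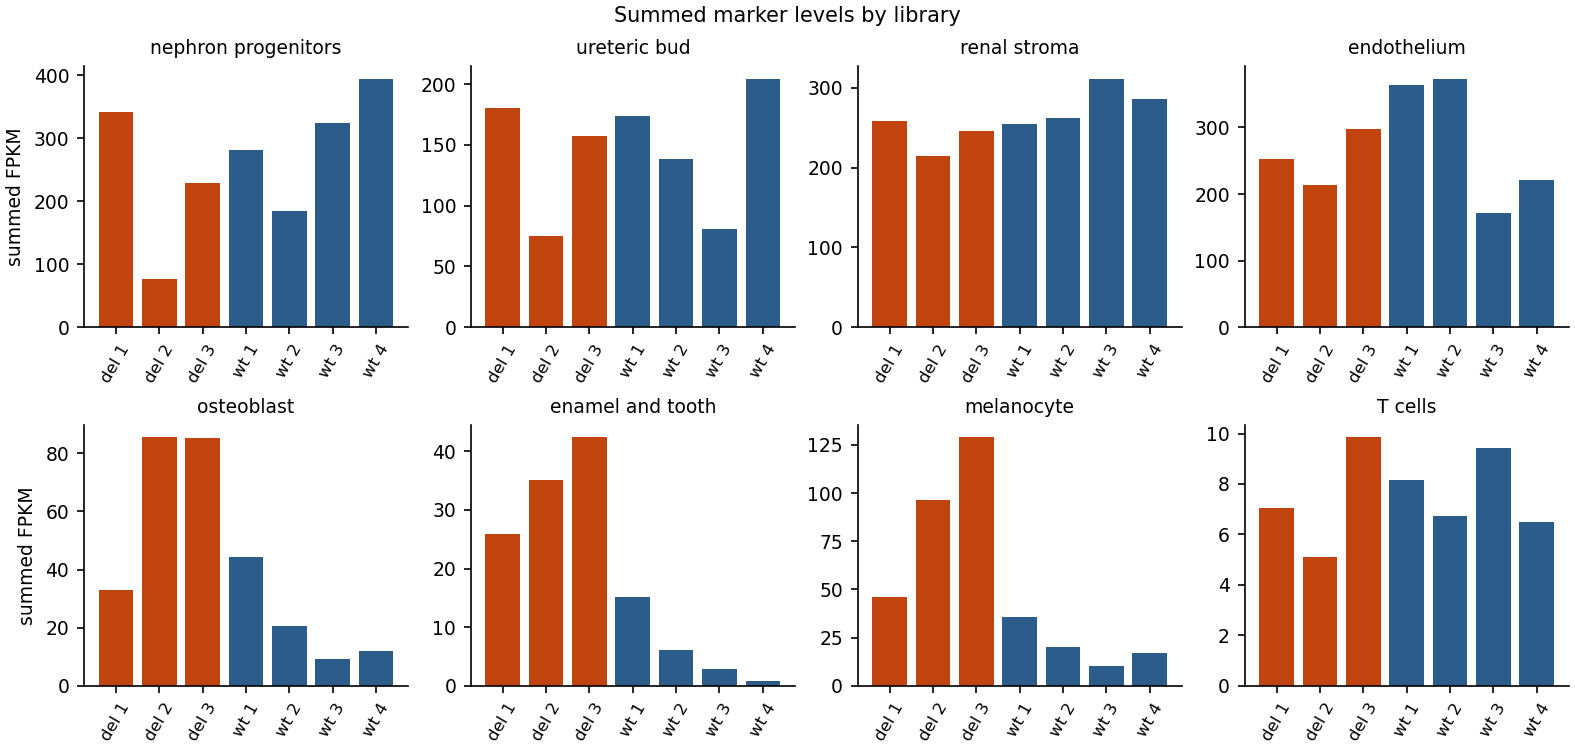
Summed FPKM (vertical axis, from 0) of the marker genes of 8 cell types in E2-2 deleted (del, orange) and wildtype (wt, blue) libraries. Nephron progenitor markers are lowest in deleted replicate 2 at 76.4 FPKM, tooth and melanocyte markers are higher in all 3 deleted libraries than in any wildtype library, and T cell markers sum to at most 9.85 FPKM.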

How the data were processed

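RNA of cultured kidneys was sequenced in 7 libraries, 3 E2-2 deleted and 4 E2-2 wildtype. The authors deposited 1 gene table per library with FPKM values and their intervals, per the file headers. The upstream software was Cufflinks 2.0.2, TopHat2 2.0.4 and CASAVA 1.8.2, per the submitters' processing notes, and the tables' build and annotation were not given in the sources used here. Rows of 1 symbol were summed (248 symbols), and 25 symbols turned to dates in 1 table were taken from another table by identical locus. Small RNAs and genes without an OK status were left out. The 13466 genes with a mean of at least 1 FPKM were tested on log2(FPKM + 1) with limma 3.58.1 in R 4.3.3 (2-sided, with a trend of variance on level, p-values adjusted by Benjamini-Hochberg across every gene tested), after a check on simulated data. Single values were tested by an exact 2-sided permutation over the 35 splits. Fragments behind a value were inferred from the width of the deposited interval, which gave numbers within 0.05 of a whole number for 78.9% to 80.2% of genes with 1 start site and fewer than 300 fragments, and cover counting error only. Replicates were numbered in order of deposit, and the numbers pair nothing.

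The members and gene lists were chosen with earlier results of these data known. The text names the 4 members, fixed members of each list and the 4 genes of smallest p in the cofactor and Wnt target lists, and the 5 genes most like each member. The targets Myc, Ccnd1 and Dkk1 and the cofactor Ctnnbip1 were named after their values were seen. Start sites came from RefSeq (GRCm38.p6) and transcripts from GENCODE M21. All 4 members matched there. Alternatives were other pseudocounts, filters, scalings, no trend, a weight per library, the name prefix as a term, each prefix alone (chosen after seeing the data) and each library left out.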

Additional observations from a re-analysis of the deposited data

How the results depend on the processing

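Under 10 other settings and with each of the 7 libraries left out, the differences of the 4 genes kept their direction, and none passed an adjusted p of 0.05 with limma. Over the 10 settings Tcf7 ranged from 0.66 to 0.95 (adjusted p 0.332 to 0.913), Lef1 from 0.59 to 0.93 (0.442 to 0.913), Tcf7l1 from -0.33 to -0.24 and Tcf7l2 from -0.13 to -0.05. With 1 library left out, Tcf7 ranged from 0.59 to 1.14, Lef1 from 0.47 to 1.03, Tcf7l1 from -0.56 to -0.07 and Tcf7l2 from -0.17 to -0.04. The shares of the summed level differed by 8.17 to 18.8 percentage points for Tcf7, 2.78 to 8.62 for Lef1, -23.3 to -8.75 for Tcf7l1 and -4.17 to -2.19 for Tcf7l2. The 4 shares add up to the whole, so they are not separate results. The number of genes past the adjusted threshold was 0 in every leave-out, 1 with no filter on low values (Ndufs5, listed near 0 in the wildtype libraries) and 1 with a weight per library (9130015A21Rik). Unadjusted p-values under 0.05 numbered 605 in the reported fit, 1000 with no filter, 394 with a mean of at least 5 FPKM and 1143 with a weight per library. The cofactor count of 1 became 4 with a weight per library and ranged from 1 to 6 with a library left out, and the Wnt target count of 9 from 5 to 9. The cause of these shifts was not tested. No paired analysis was possible because the replicate numbers only follow the order of deposit. Values near 5 FPKM rest on as few as 201 inferred fragments.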
